A study of Homo sapiens with 10 samples.

Results

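Genes that the transcription factor p53 is known to switch on were followed in a breast cancer cell line sorted by the activity of the Oct4A promoter. The members are 8 textbook p53 targets, AEN, CDKN1A, MDM2, GDF15, BTG2, SESN1, SESN2 and TP53INP1, picked by symbol, with no cut on a measured value. Probe sets of the array were named from the platform annotation, and 12 of the 25750 probe sets in the table carried the symbol of a member. They covered 5 of the 8 genes (AEN, CDKN1A, MDM2, GDF15 and TP53INP1), while BTG2, SESN1 and SESN2 were not analysed here. In 7 of the 12 probe sets the signal reached the median of its own array in at least 2 of the 10 arrays, and these 7, which stood for all 5 measured genes, were tested together with 13883 such probe sets in all.

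The cells were MDA-MB-231, a mesenchymal, triple-negative line derived from a metastatic site of breast cancer, obtained from ATCC. They had been stably transfected with pEGFP1-Oct3/4, a plasmid in which the Oct4A promoter drives green fluorescent protein (GFP), and selected with neomycin, so every array came from transfected cells that had passed drug selection. Oct4hi breast cancer cells (BCCs) were the brightest 5% of cells by GFP (4 arrays), Oct4med BCCs lay between both extremes (2 arrays) and Oct4low BCCs were the dimmest 5% by the sample labels, a share the study does not state uniformly (4 arrays). The gate read reporter GFP and not Oct4A itself, the subsets were fractions of the same stably transfected line, and the line carries a mutant p53 in all 3 subsets. RNA was hybridised to Affymetrix arrays, each replicate was described as a biological one, and the p-values below measure the spread among these 10 arrays only.

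In cells with functional p53, DNA damage stabilises the protein, which binds a pair of adjacent decamers in the DNA near its targets and raises their transcription. The products halt the cell cycle (CDKN1A), degrade nucleic acid during cell death (AEN), feed autophagy and death signals (TP53INP1), are secreted under stress (GDF15), or ubiquitinate p53 itself and so close a negative feedback loop (MDM2). Tumour-derived mutants of p53 often lose binding to these sequences, and several of the targets also answer to other factors, GDF15 to ATF4 of the integrated stress response among them.

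The DNA in question is shown here for the measured members whose RefSeq promoter windows held a sequence near the p53 full-site consensus. Each window ran 250 bases before to 50 bases after a RefSeq transcript start (GRCh38.p14), and windows of 7 of the 8 members were searched. No window of TP53INP1 was searched. The match, in capitals, is a pair of adjacent decamers without a spacer, with C required at the fourth and G at the seventh base of each decamer and at most 3 other mismatches over the 20 bases. The consensus reads the same on both strands. Flanking bases are in lower case, and the first base of the match lies 34 bases before the start in AEN, 94 bases before it in MDM2 (1 of its 4 windows is shown) and at base 29 after it in GDF15.
AEN, chr15:88621286-88621339, plus strand, 2 mismatches: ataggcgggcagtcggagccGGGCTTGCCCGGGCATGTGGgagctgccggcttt
MDM2, chr12:68808903-68808962, plus strand, 2 mismatches: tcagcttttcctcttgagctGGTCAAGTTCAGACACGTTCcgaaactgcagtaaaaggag
GDF15, chr19:18386186-18386205, plus strand, 3 mismatches: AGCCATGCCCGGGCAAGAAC
Of 35116 promoter windows of the same length, 0.285% held a match with at most 2 mismatches and 1.12% with at most 3. The CDKN1A window held none with at most 3 in its 300 bases, and sequence beyond the windows was not searched, so a site further away would be missed. A match is a description of letters, and binding was not measured. Over these 3 genes the array values, given next, ran in different directions: AEN was highest in Oct4hi BCCs, GDF15 was lowest there, and MDM2 passed the test in no comparison.

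The measured members did not move as a block. Across the 3 pairs of subsets, CDKN1A and AEN were lowest in Oct4med BCCs, GDF15 was highest in Oct4med and lowest in Oct4hi BCCs, TP53INP1 was lower in Oct4hi than in Oct4low BCCs by its brightest probe set, and MDM2 did not pass the test anywhere. All values are log2 intensities as deposited, changes are log2 differences from a limma fit over the 3 subsets, and adjusted p-values (Benjamini-Hochberg over 13883 probe sets) count as passing under 0.05. The 3 comparisons share arrays, so a value that is low in the Oct4med arrays enters 2 of them.

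CDKN1A encodes p21, an inhibitor of cyclin-dependent kinases that stops cells before DNA replication and is the classical readout of p53 activity. Its single probe set (202284_s_at) read 9.28, 9.27, 9.28 and 9.34 in the 4 Oct4hi arrays, 8.60 and 8.53 in the 2 Oct4med arrays, and 9.30, 9.26, 9.23 and 9.34 in the 4 Oct4low arrays. Both Oct4med arrays lay below each of the other 8, while the Oct4hi and Oct4low values overlapped. The level in Oct4med BCCs (8.57 ± 0.05, SD, n = 2) was 0.607 times that in Oct4low BCCs (9.28 ± 0.05, n = 4), a log2 change of -0.72 (SE 0.08, limma adjusted p = 7.5e-05). Oct4hi BCCs (9.29 ± 0.03, n = 4) were 1.65-fold above Oct4med BCCs (log2 change 0.73, limma adjusted p = 6.1e-05). Between Oct4hi and Oct4low BCCs the change was 0.01, with a 95% interval of -0.13 to 0.15 (limma adjusted p = 0.943), and its sign turned to -0.08 when the arrays were quantile normalised again. By size of change, 97.7% of all 7644 tested genes moved more than CDKN1A between Oct4hi and Oct4low BCCs, but only 3% did between Oct4med and Oct4low BCCs.

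AEN, an exonuclease that p53 induces and that digests DNA and RNA in dying cells, had the same low point with an added step between the extremes. Its probe set (219361_s_at) read 8.66, 8.75, 8.62 and 8.64 in Oct4hi BCCs, 7.98 and 8.09 in Oct4med BCCs, and 8.38, 8.46, 8.40 and 8.50 in Oct4low BCCs. No 2 subsets overlapped, in the order Oct4hi, Oct4low, Oct4med. Oct4hi BCCs (8.67 ± 0.06) were 1.18-fold above Oct4low BCCs (8.44 ± 0.06; log2 change 0.23, SE 0.07, limma adjusted p = 0.0181), a call lost after a second quantile normalisation (adjusted p = 0.0517), without the filter on dim probe sets (0.0606) and without Oct4hi replicate 2 (0.0593), over a range of 0.0049 to 0.0606 in all settings tried. The fall in Oct4med BCCs (8.04 ± 0.08) was larger, -0.40 against Oct4low BCCs (limma adjusted p = 0.00541, and 0.0012 to 0.056 over the other settings, the highest without Oct4med replicate 1), and Oct4hi BCCs exceeded Oct4med BCCs by 0.63 (1.55-fold, limma adjusted p = 0.000247).

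GDF15, a secreted stress cytokine of the TGF-beta superfamily, ran in the other direction. Its bright probe set (221577_x_at) read 7.70, 7.91, 7.62 and 7.76 in Oct4hi BCCs, 8.71 and 8.70 in Oct4med BCCs, and 8.25, 8.30, 8.41 and 8.35 in Oct4low BCCs. The 3 subsets were fully separate, with Oct4med on top and Oct4hi at the bottom. Oct4hi BCCs (7.75 ± 0.13) held 0.669 times the Oct4low level (8.33 ± 0.07), a log2 change of -0.58 (SE 0.08, limma adjusted p = 0.000218). The level in Oct4med BCCs (8.71 ± 0.01) was 1.30-fold that of Oct4low BCCs (log2 change 0.38, SE 0.10, limma adjusted p = 0.0159). This last call ended without either Oct4med replicate (adjusted p = 0.0797 without replicate 1 and 0.0598 without replicate 2, in a range of 0.00437 to 0.0797 over the settings tried). Oct4hi BCCs lay 0.96 below Oct4med BCCs on the log2 scale, 0.514 times the level (limma adjusted p = 3.46e-05), and only 1.26% of tested genes changed more in that pair. The other GDF15 probe set (221576_at) never reached the median of its array and was not tested.

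TP53INP1 encodes a stress-induced nuclear protein that acts with p53 and in autophagy, and its probe sets did not give 1 answer. The brightest (225912_at) read 6.79, 6.73, 6.55 and 6.85 in Oct4hi BCCs, 6.98 and 7.02 in Oct4med BCCs, and 7.45, 7.32, 7.33 and 7.12 in Oct4low BCCs. Every Oct4hi array lay below every Oct4med array, and these lay below every Oct4low array. The Oct4hi mean (6.73 ± 0.13) was 0.671 times the Oct4low mean (7.30 ± 0.14), a log2 change of -0.57 (SE 0.09, limma adjusted p = 0.000581). The steps through Oct4med BCCs (7.0 ± 0.03) did not pass: -0.30 against Oct4low BCCs (95% interval -0.54 to -0.06, limma adjusted p = 0.0705, and 0.0385 to 0.246 over the other settings, passing under the stricter filter and without Oct4low replicate 4) and -0.27 in Oct4hi against Oct4med BCCs (limma adjusted p = 0.086, and 0.0266 to 0.243 over the other settings, the lowest after a second quantile normalisation). Such single intervals are not adjusted for the number of probe sets, which is why one can leave out 0 while the adjusted p misses the threshold.

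A dimmer TP53INP1 probe set (244721_at), close to the array medians of 5.05 to 5.14, read 5.40, 5.48, 5.49 and 5.11 in Oct4hi BCCs, 5.72 and 5.59 in Oct4med BCCs, and 5.40, 5.27, 5.20 and 5.49 in Oct4low BCCs. Here the Oct4med arrays were the highest and the extremes overlapped. The change in Oct4hi against Oct4low BCCs was 0.03 with a 95% interval of -0.19 to 0.24 (limma adjusted p = 0.854), which does not reach the -0.57 of the brighter probe set, and no comparison passed. The lower TP53INP1 level in Oct4hi BCCs therefore rests on 1 of 2 tested probe sets, and the files do not say which transcripts each one reads.

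MDM2, the ubiquitin ligase that p53 induces and that in turn removes p53, passed in no comparison with either tested probe set. The brighter one (229711_s_at) read 9.08, 9.06, 9.01 and 9.15 in Oct4hi BCCs, 8.70 and 9.01 in Oct4med BCCs, and 8.74, 8.87, 9.10 and 8.84 in Oct4low BCCs. The Oct4low value of 9.10, replicate 3, fell inside the Oct4hi range, and the Oct4hi arrays lay closer together (SD 0.06) than the Oct4med arrays (SD 0.22). The change in Oct4hi against Oct4low BCCs was 0.19 (95% interval -0.02 to 0.39, limma adjusted p = 0.143), and it passed only without Oct4low replicate 3 (adjusted p = 0.0454, in a range of 0.0454 to 0.314 over the settings tried). In Oct4med against Oct4low BCCs it was -0.04 (-0.28 to 0.21), a sign that turned to 0.03 after a second quantile normalisation. In Oct4hi against Oct4med BCCs it was 0.22 (-0.03 to 0.47). These intervals do not reach the fall of CDKN1A in Oct4med BCCs, but leave room for changes as large as the AEN difference between the extremes.

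The second tested MDM2 probe set (225160_x_at) ranged over 7.03 to 7.32 in Oct4hi, 6.97 to 7.02 in Oct4med and 6.87 to 7.23 in Oct4low BCCs. Its change in Oct4hi against Oct4low BCCs was 0.13 (95% interval -0.08 to 0.33, limma adjusted p = 0.343), and the adjusted p was 0.84 in Oct4med against Oct4low and 0.313 in Oct4hi against Oct4med BCCs. The remaining 3 MDM2 probe sets, with 1 each for GDF15 and TP53INP1, lay between 2.96 and 4.62 in all arrays, under every array median. They were left out of the tests and bear on no result.

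**Figure D1:**
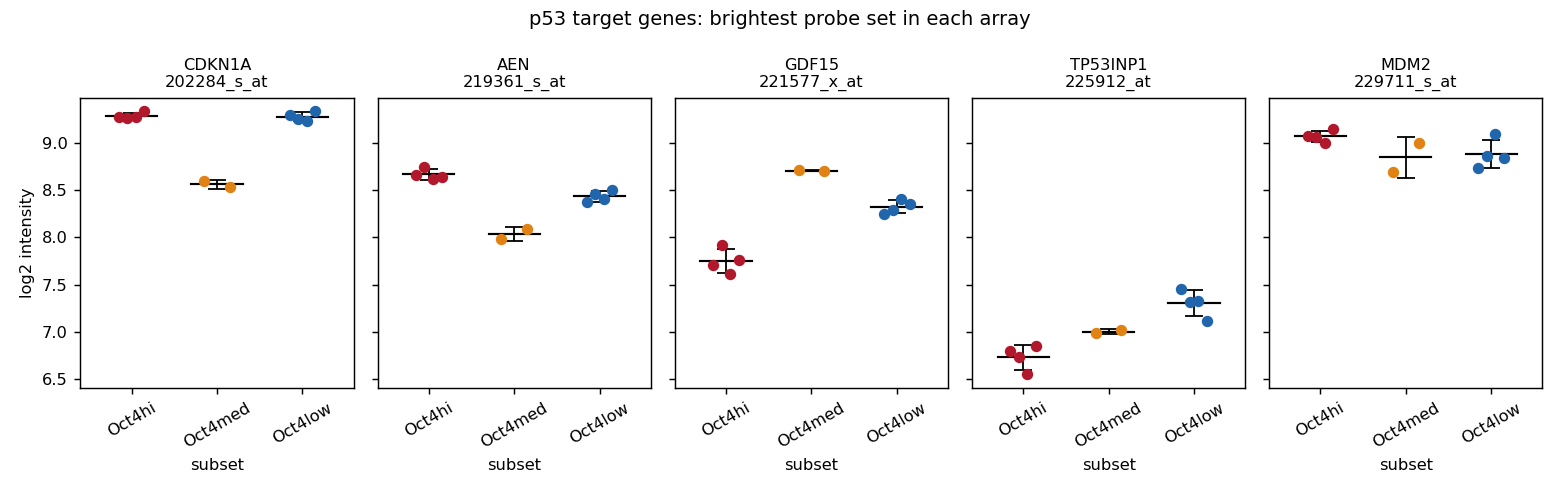
Log2 intensity (y axis) of the brightest probe set of each measured p53 target in every array, by subset (x axis: Oct4hi, Oct4med, Oct4low), with the mean and SD as black lines. The Oct4med arrays are the lowest for CDKN1A (8.53 and 8.60) and AEN (7.98 and 8.09) and the highest for GDF15 (8.70 and 8.71), and the MDM2 points overlap between the extremes.

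**Figure D2:**
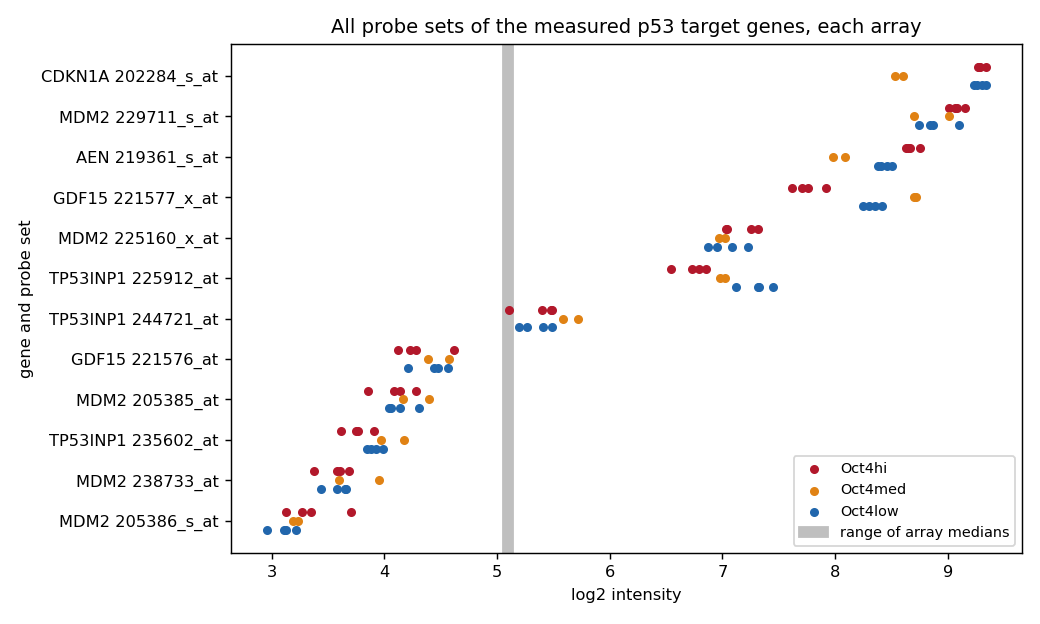
Log2 intensity (x axis) of all 12 probe sets of the measured members in every array, coloured by subset, with the range of array medians in grey. The 5 probe sets below the grey band, at 2.96 to 4.62, were not tested. TP53INP1 244721_at, at 5.11 to 5.72, reaches from within the band to above it.

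Counted by gene, with the brightest tested probe set standing for each, 1 of the 5 members was higher in Oct4hi than in Oct4low BCCs (AEN) and 2 were lower (GDF15 and TP53INP1), and the AEN call was lost after a second quantile normalisation. Over all 7644 tested genes 20.4% were higher and 14.7% lower in that pair. The median change of the members was 0.01, against 0.02 for all genes. In Oct4med against Oct4low BCCs 1 member was higher (GDF15) and 2 were lower (AEN and CDKN1A), where 5.68% of all genes were higher and 11.7% lower, and the medians were -0.30 for the members and 0.03 for all genes. In Oct4hi against Oct4med BCCs 2 members were higher (AEN and CDKN1A) and 1 was lower (GDF15), where 18.2% of all genes were higher and 9.62% lower, and the medians were 0.22 and -0.01. With 5 genes, shares cannot be read finely against this background, and in each pair the members that passed went both ways.

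The balance of directions over all genes depended on the scaling. In Oct4med against Oct4low BCCs 434 genes were higher and 896 lower, but 839 higher and 654 lower after a second quantile normalisation. In Oct4hi against Oct4med BCCs 1389 were higher and 735 lower, but 825 and 1029 after that step, and 1419 and 459 when each array was shifted to a common median. The CDKN1A, AEN and GDF15 calls in both of these pairs kept their direction and their side of the threshold under each of these scalings.

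**Figure D3:**
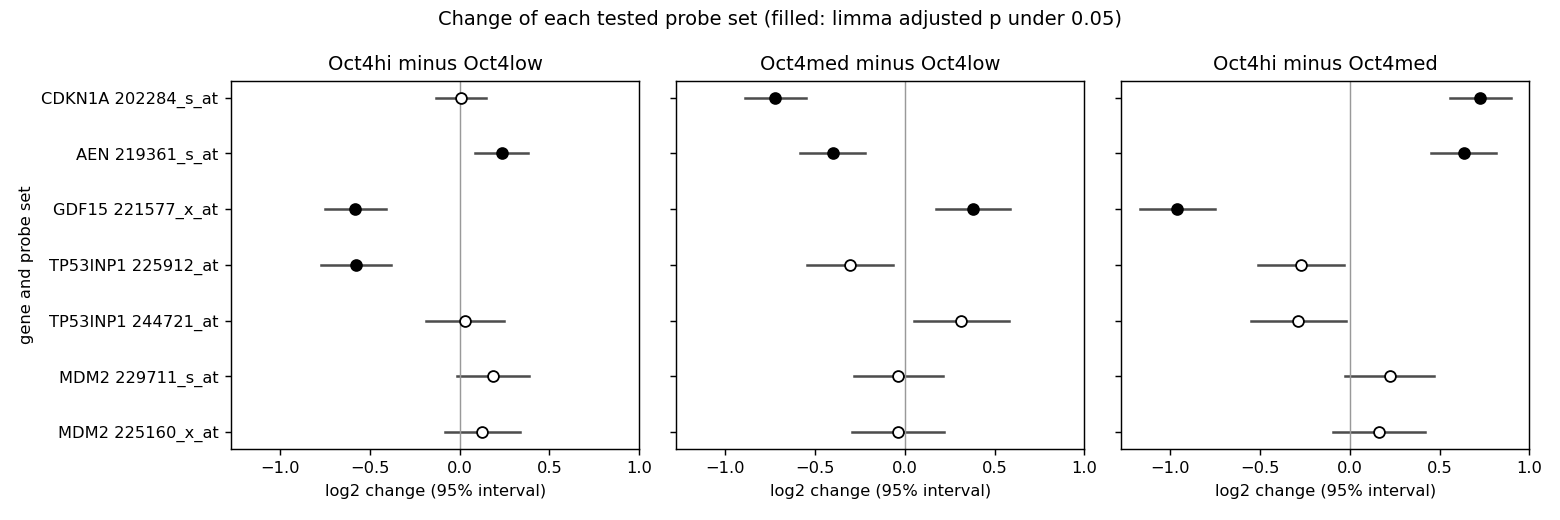
Log2 change (x axis) with its unadjusted 95% interval for the 7 tested probe sets (y axis) in Oct4hi minus Oct4low, Oct4med minus Oct4low and Oct4hi minus Oct4med BCCs, filled where the limma adjusted p was under 0.05. CDKN1A sits at 0.01 in the left panel, where quantile normalising again turns its sign and ends the AEN call (0.23), and at -0.72 and 0.73 in the others, and the TP53INP1 probe sets part in the left panel (-0.57 and 0.03).

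The genes whose level followed each member most closely over the 10 arrays differed from member to member. The points are arrays of only 3 subsets, so the coefficients are a description with no test. CDKN1A went with SERTAD1, a cyclin-dependent kinase regulator (Pearson r = 0.992), and with ID1, an inhibitor of differentiation (r = 0.988), which averaged 11.44 in Oct4hi, 9.84 in Oct4med and 11.54 in Oct4low BCCs. AEN went with the transcription factor TFE3 (r = 0.984), at 10.47, 9.60 and 10.14 in Oct4hi, Oct4med and Oct4low BCCs, and with the cyclin CCNK (r = 0.979). GDF15 went with the semaphorin receptor PLXND1 (r = 0.981) and the chloride channel protein CLIC6 (r = 0.977), the second at 6.35 in Oct4hi, 7.36 in Oct4med and 6.93 in Oct4low BCCs. TP53INP1 went with the Wnt co-receptor LRP5 (r = 0.965) and the luminal transcription factor GATA3 (r = 0.963), both lowest in Oct4hi and highest in Oct4low BCCs.

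A further 50 p53 targets were listed by role, of which 31 had a probe set and 27 were tested. In Oct4hi against Oct4low BCCs 6 were higher and 5 lower (median 0.04), where 20.4% of all tested genes were higher and 14.7% lower. In Oct4med against Oct4low BCCs 2 were higher and 7 lower (median -0.05), where 5.68% of all genes were higher and 11.7% lower. In Oct4hi against Oct4med BCCs 10 were higher and 4 lower (median 0.11), where 18.2% of all genes were higher and 9.62% lower. The last count of 10 came to 4 after a second quantile normalisation and to 3 without Oct4med replicate 1, and the 7 lower in Oct4med BCCs came to 4 without that replicate. The 2 higher in Oct4med BCCs came to 0 when any single Oct4low replicate was left out.

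Among the growth arrest and repair genes of that list, GADD45A, which binds cell cycle and repair proteins after DNA damage, had the pattern of AEN. It averaged 12.58 ± 0.03 in Oct4hi, 11.93 ± 0.12 in Oct4med and 12.33 ± 0.04 in Oct4low BCCs (changes of 0.25, -0.41 and 0.65, limma adjusted p = 0.0126, 0.00437 and 0.000177, for Oct4hi against Oct4low, Oct4med against Oct4low and Oct4hi against Oct4med), and the second of these calls was lost without Oct4med replicate 1 (adjusted p = 0.0553). The polo-like kinase PLK2 was lowest in Oct4med BCCs too, at 11.18 ± 0.14 against 11.82 ± 0.09 in Oct4low BCCs (-0.64, limma adjusted p = 0.000611). SERTAD1, the gene most like CDKN1A, is listed among the p53 targets of metabolism and further roles. It fell by 0.66 in Oct4med against Oct4low BCCs (limma adjusted p = 0.00014) and differed by 0.04 between the extremes (adjusted p = 0.657). ZMAT3, an RNA-binding protein that restrains growth, was instead lower in Oct4hi BCCs, by -0.42 against Oct4low and -0.41 against Oct4med BCCs (limma adjusted p = 0.000637 and 0.00379).

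Of the 9 tested cell death genes, 2 were higher in Oct4hi than in Oct4low BCCs, a share close to the 20.4% of all genes, and none was lower. PMAIP1, the BH3-only protein NOXA, was 0.39 higher (limma adjusted p = 0.00189) and the death receptor FAS 0.31 higher (limma adjusted p = 0.0196, and 0.00612 to 0.0584 over the other settings, the call being lost without Oct4hi replicate 1 or Oct4low replicate 2 or 4). BAX, which permeabilises mitochondria, was 0.34 higher in Oct4hi than in Oct4med BCCs (limma adjusted p = 0.0245, and 0.00422 to 0.234 over the other settings, the highest without Oct4med replicate 1) and changed by 0.12 between the extremes (adjusted p = 0.278). Among the genes of metabolism and further roles, TIGAR, a fructose bisphosphatase that diverts sugar from glycolysis, was 0.42 higher in Oct4hi than in Oct4low BCCs (limma adjusted p = 0.00284). The lysosomal fucosidase FUCA1 (-0.89) and PADI4, which converts protein arginine to citrulline (-1.82), were the 2 with the greatest fall there, with limma adjusted p-values of 1.17e-06 and 2.41e-08. PADI4 averaged 6.29 ± 0.06 in Oct4hi, 6.85 ± 0.01 in Oct4med and 8.11 ± 0.12 in Oct4low BCCs, without overlap between any of the 3 subsets.

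Of 18 listed relatives and regulators of p53, 12 had a probe set and 10 were tested. In Oct4hi against Oct4low BCCs 2 were higher and 3 lower, the higher ones coming to 1 after a second quantile normalisation and without Oct4hi replicate 1 or 2 or Oct4low replicate 1 or 4, and the lower ones to 1 with the mean of the probe sets of a gene. Over all tested genes 20.4% were higher and 14.7% lower in that pair. HIPK2, a kinase that phosphorylates p53, was lower by its brightest probe set, with changes of -0.46 in Oct4hi and -0.54 in Oct4med against Oct4low BCCs. The limma adjusted p was 0.00183 and 0.00379, the second at up to 0.0508 over the other settings. No other tested HIPK2 probe set passed in either pair. The changes of these others ran from -0.06 to 0.25 in Oct4hi and from -0.23 to 0.39 in Oct4med against Oct4low BCCs. The lower HIPK2 level therefore rests on the brightest probe set alone. HUWE1, a ubiquitin ligase that acts on p53, was 0.40 higher in Oct4hi than in Oct4low BCCs (limma adjusted p = 0.00208). MDM4, the partner of MDM2, differed by -0.42 between Oct4med and Oct4low BCCs (limma adjusted p = 0.0491), and the adjusted p ran from 0.0247 to 0.279 over the other settings, the highest without Oct4med replicate 1. PPM1D, a phosphatase that switches p53 off and is itself a p53 target, passed in no comparison of the main fit (limma adjusted p = 0.377, 0.159 and 0.43 in Oct4hi against Oct4low, Oct4med against Oct4low and Oct4hi against Oct4med BCCs). In Oct4med against Oct4low BCCs its adjusted p came to 0.0423 at the lowest over the other settings.

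Other stress programmes were read beside the members from lists that share no gene with them. Of 9 tested targets of ATF4, 5 were higher and 1 lower in Oct4hi against Oct4low BCCs and 2 were lower in Oct4med against Oct4low BCCs, and these counts came to 3 higher after a second quantile normalisation and to 1 lower without Oct4med replicate 1. DDIT3, the transcription factor CHOP, averaged 9.15 ± 0.12 in Oct4hi, 7.91 ± 0.13 in Oct4med and 9.52 ± 0.08 in Oct4low BCCs. The range within the list was wide, since PSAT1, a serine synthesis enzyme, changed by 0.35 in Oct4med against Oct4low BCCs where DDIT3 changed by -1.61, the first without passing the test (limma adjusted p = 0.054). In Oct4hi against Oct4med BCCs 5 ATF4 targets were higher and none was lower, but the count of 5 could fall when an array was left out. The changes of CEBPB, ATF5, SLC3A2 and PCK2 came to as low as 0.09, 0.15, 0.18 and 0.18 over the other settings. That of DDIT3 stayed at 1.08 or more. Over all tested genes 20.4% were higher and 14.7% lower in Oct4hi against Oct4low BCCs. These shares were 5.68% and 11.7% in Oct4med against Oct4low and 18.2% and 9.62% in Oct4hi against Oct4med BCCs. Of 10 tested immediate-early and cell handling genes, 6 were lower in Oct4hi and 7 lower in Oct4med against Oct4low BCCs and 5 were higher in Oct4hi than in Oct4med BCCs. ATF3, a stress-induced factor, averaged 11.57 ± 0.06, 10.67 ± 0.08 and 11.95 ± 0.06 in Oct4hi, Oct4med and Oct4low BCCs. The Oct4med arrays that were low for CDKN1A and AEN were thus also low for ATF3. Not every gene of the list had this low point. NR4A2 and KLF6 did not pass in Oct4hi against Oct4med BCCs (0.17 and 0.02, limma adjusted p = 0.41 and 0.896). The array control for the 5′ end of 28S ribosomal RNA was lowest in Oct4med BCCs as well, at 13.54 to 13.60 in Oct4hi, 12.64 to 12.77 in Oct4med and 13.53 to 13.70 in Oct4low BCCs. So was the control for the middle of 28S ribosomal RNA, at 11.78 to 11.92 in Oct4hi, 11.38 to 11.63 in Oct4med and 11.93 to 12.01 in Oct4low BCCs. The controls for 18S ribosomal RNA and the 5′ end of actin were not lowest there. The first averaged 13.14, 12.98 and 12.84 and the second 11.74, 11.97 and 11.65 in Oct4hi, Oct4med and Oct4low BCCs. The part of either list, or of these controls, in the Oct4med values was not tested.

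**Figure D4:**
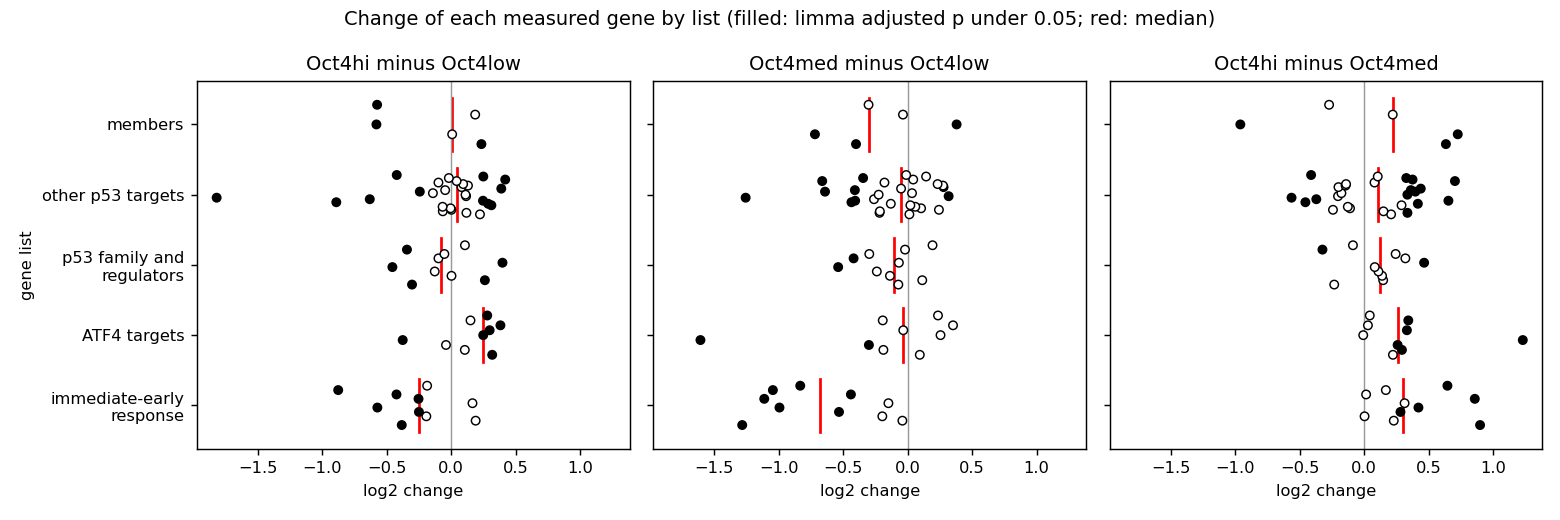
Log2 change (x axis) of every tested gene of 5 lists (y axis: members, other p53 targets, p53 family and regulators, ATF4 targets, immediate-early response) in the 3 pairs of subsets, filled where the limma adjusted p was under 0.05, with the list median in red. The median of the immediate-early list is -0.25, -0.68 and 0.30 from left to right and that of the other p53 targets 0.04, -0.05 and 0.11, and quantile normalising again lowers the 10 other p53 targets called higher in the right panel to 4.

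Array medians lay between 5.05 and 5.14, and the median SD of a probe set was 0.12 within each subset. Replicate arrays correlated at 0.987 to 0.994 over the 13883 tested probe sets, against 0.957 to 0.981 between subsets. Of the markers of mesenchymal breast lines, CD44 and CAV1 averaged 11.06 and 12.23 over the 10 arrays. Both were lower in Oct4hi than in Oct4low BCCs (log2 change -0.35 each, limma adjusted p = 0.00179 and 0.00143). EGFR averaged 5.90, and the only MSN (4.96) and VIM (3.95) probe sets in the table lay under the lowest array median. The authors' filter removed features changing under 1.2-fold, so other probe sets of MSN and VIM may be missing, and these values do not show that either gene was silent. Luminal markers were not all dim: GATA3, TFF1 and ESR1 averaged 7.25, 6.16 and 6.0, with GATA3 (-0.76) and TFF1 (-0.48) lower in Oct4hi than in Oct4low BCCs, and PGR averaged 3.27. Of the 3 erythroid markers tested, HBE1 averaged 7.64 and was 0.73 higher in Oct4hi than in Oct4low BCCs (limma adjusted p = 4.57e-05). The other erythroid markers tested did not pass in that pair, where the median change of the 3 was 0.04. Of the leukocyte markers CD3E and CD14 averaged 5.38 and 5.29, above the array medians, with PTPRC and LYZ at 3.14 and 3.21. The part of these markers in the member values was not tested. In RNA from sorted fractions, fewer cells expressing a gene and less of its RNA per cell cannot be told apart.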

How the data were processed

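RNA from 10 samples was hybridised to Affymetrix Human Genome U133 Plus 2.0 arrays. The deposited values are log2 intensities, which the authors made with RMA normalisation in BRB-Array Tools 4.4.0 and describe as filtered for features near background or changing under 1.2-fold, a step that can raise the share of remaining probe sets that pass a test. Genes were named from the platform annotation (18682 probe sets with 1 symbol, 799 with several, 6246 with none), and 23 control probe sets were left out.

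The limma test (limma 3.58.1, R 4.3.3; two-sided, Benjamini-Hochberg) was fitted over all 10 arrays with a mean per subset, on probe sets at or above the array median in at least 2 arrays, and was tested on simulated data. Each gene was counted by its brightest tested probe set. Genes named were every member, genes drawn from up to 4 per comparison of each other list with the largest change among those that passed, MDM4 and PPM1D in any case, the 2 genes most correlated with each member that passed, and the cell markers. Not every gene this rule allows is described or reported here. Members and lists were chosen with earlier results of these data known. Alternatives covered the filter, the scaling, array weights, the prior, the test, the samples fitted, a replicate block, the choice of probe set and leaving out each array. Precision is limited by how many arrays each subset has. Probe sets whose symbol is shared by several genes were not named. No comparison columns were part of the table.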

Additional observations from a re-analysis of the deposited data

Results flagged for a closer look

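Of 100 groups of 4 arrays checked, 2 held an array far from the rest of its subset, where chance gives about 1 in 20. Neither is a p53 target. PCK2, a target of ATF4, read 10.20 in Oct4low replicate 4 and 10.06 to 10.07 in the other Oct4low arrays, a gap of 0.8703 of the whole range. KLF2, an immediate-early gene, read 9.37 in Oct4low replicate 3 and 9.09 to 9.11 in the other Oct4low arrays, a gap of 0.9372 of the range.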

How the results depend on the processing

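The lower GDF15 and TP53INP1 (225912_at) levels in Oct4hi against Oct4low BCCs, the lower CDKN1A level in Oct4med BCCs and its higher level in Oct4hi than in Oct4med BCCs, and the AEN and GDF15 differences between Oct4hi and Oct4med BCCs, kept their call in every setting run. Of the members, 0 were higher in Oct4hi than in Oct4low BCCs without the filter or after a second quantile normalisation, and 0 (without Oct4hi replicate 2) to 2 (without Oct4low replicate 3, which added MDM2) when arrays were left out. In Oct4hi against Oct4med BCCs 2 members were lower under the stricter filter, the second quantile normalisation and the mean of the probe sets of a gene, each adding TP53INP1. In Oct4med against Oct4low BCCs leaving out arrays gave 0 to 1 member higher (0 without either Oct4med array) and 1 to 3 lower (1 without Oct4med replicate 1, 3 without Oct4low replicate 4), and the stricter filter gave 3 lower, adding TP53INP1. With the replicate number as a replicate block, 0 members were higher in that pair. The numbers were not taken as pairs, since same-numbered Oct4hi and Oct4low arrays did not all deviate together (r = 0.277, -0.211, -0.0555 and -0.0747). Differently numbered arrays ran from -0.314 to 0.413. Among them, Oct4hi replicates 2, 3 and 4 gave r of 0.24, 0.31 and 0.413 with Oct4low replicates 3, 4 and 2. A pairing or shared batch under other numbers was neither modelled nor tested, so independence of the arrays is not shown.

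Values that were near 0 and passed no test changed sign. CDKN1A in Oct4hi against Oct4low BCCs was -0.077 after a second quantile normalisation, -0.00102 with array weights and -0.00923 to 0.0267 without single arrays. MDM2 229711_s_at in Oct4med against Oct4low BCCs was 0.0349, 0.00707 with the replicate block and -0.191 to 0.118 without single arrays, and MDM2 225160_x_at was 0.0611 and -0.093 to 0.0253. TP53INP1 244721_at in Oct4hi against Oct4low BCCs was -0.0189 to 0.116 without single arrays.

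Probe sets past the threshold numbered 4837 in Oct4hi against Oct4low, 2865 in Oct4med against Oct4low and 3710 in Oct4hi against Oct4med BCCs. The second count was 1851 with array weights, 1109 with the methods' t-test after Benjamini-Hochberg adjustment, 1552 with the replicate block and 1519 to 2797 without single arrays, and the third 1866, 2232 with the block and 1430 to 3871, the lowest both without Oct4med replicate 1. At the unadjusted threshold of 0.001 in the methods, their t-test called 1718, 493 and 776. Which of these settings is nearer the truth was not tested, and with 2 Oct4med arrays each carries much weight in that subset.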
